A study of Caenorhabditis elegans with 6 samples.

Results

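Peaks of RNA recovered with the tagged splicing regulator MBL-1 lay in 104 protein-coding genes of many functions, described here apart from mbl-1 and a group of genes left out by name. The 104 genes were taken from 137 annotated protein-coding genes, of 19983 in all, that held the summit (the highest point) of a peak in any of 3 peak lists. A summit inside a snoRNA, snRNA, rRNA, tRNA or microRNA gene was not counted. The other 33 coding genes, left out by name, were mbl-1, the tubulin and vacuolar ATPase genes, and a set of named neuronal, muscle, adhesion and RNA-binding protein genes. Because peak calls chose the 104 genes, their peak heights and folds are given as a description and were not tested.

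The samples were RNA from whole Caenorhabditis elegans larvae of the L4 stage, all of the genotype mbl-1c(syb5299), in which MBL-1 carries a 3xFLAG tag. Animals were synchronised by bleaching and fed OP50 bacteria on NGM plates at 20 °C. There were 3 samples of RNA input, taken before immunoprecipitation, and 3 samples recovered with an anti-FLAG antibody (IP). No IP of untagged animals was analysed here, so RNA retained by the beads or antibody cannot be told apart from RNA held by MBL-1.

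Muscleblind proteins are zinc-finger RNA-binding proteins that regulate alternative splicing and, in several animals, the stability and localisation of mRNA. In C. elegans, mbl-1 acts in neurons and muscle. RNA immunoprecipitation followed by sequencing (RIP-seq) recovers transcripts that travel with a protein, whether it touches them directly or through partners. Whole animals were used, so more cells expressing a transcript and more of that transcript per cell cannot be told apart.

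Lists 1, 2 and 3 are named for the replicate number, and each sets the IP of that number against its own input. After duplicate removal the IPs held 39033, 49827 and 41840 tags, a tag being the aligned read kept at a position, and the inputs held 36643, 38364 and 30707. All folds, p and q values are those of the authors' peak caller. The fold is the IP level over the local input level, each with 1 added. Where the input held almost no tags nearby, the caller used a genome-wide background of 0.220, 0.228 or 0.184 tags in lists 1, 2 and 3. Within a list the fold then follows from the IP tags alone and has no measured denominator. Before the fold, the caller scaled the IP to the smaller library, by 0.939, 0.770 and 0.734 in lists 1, 2 and 3. IP tags are given here before that scaling and are not adjusted for depth. Equal tags over background input therefore give unlike folds in different lists, and an SD of folds between lists includes that difference. The labels do not say that the replicates came from separate cultures, so the spread between lists may be technical.

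Of the 104 genes, 36 had a summit in list 1, 46 in list 2 and 76 in list 3. Among all annotated coding genes the shares with a summit in these lists were 0.26%, 0.325% and 0.515%. In any list the share of all coding genes was 0.686%. The rule used these same calls, so nothing is read from the comparison with these shares. The genes together held 194 of the 459 summits in the lists, 40 in list 1, 56 in list 2 and 98 in list 3. Summits were low. The median was 7 IP tags in list 1 (4 to 70), 8 in list 2 (4 to 71) and 5 in list 3 (3 to 213). For 7 tags the exact 95% Poisson interval runs from 2.81 to 14.4, and such intervals hold counting error alone.

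The genes differed in how often they recurred. There were 15 genes in all 3 lists, 24 in exactly 2 and 65 in 1 list alone. When a peak was assigned by largest overlap in place of its summit, 125 genes were in any list, 60 in at least 2 and 33 in all 3. By summit these counts were 104, 39 and 15. Assigned by summit, 0.13% of all coding genes were in 3 lists and 0.285% in at least 2. The shares under the overlap rule are not given here. The 65 genes were unevenly spread, with 9 in list 1 alone, 14 in list 2 alone and 42 in list 3 alone. The strongest summit of a gene had a median of 5 tags for genes in 1 list (3 to 18), 8 for genes in 2 lists (4 to 25) and 16 for genes in 3 lists (6 to 213). These ranges overlap widely.

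**Figure D1:**
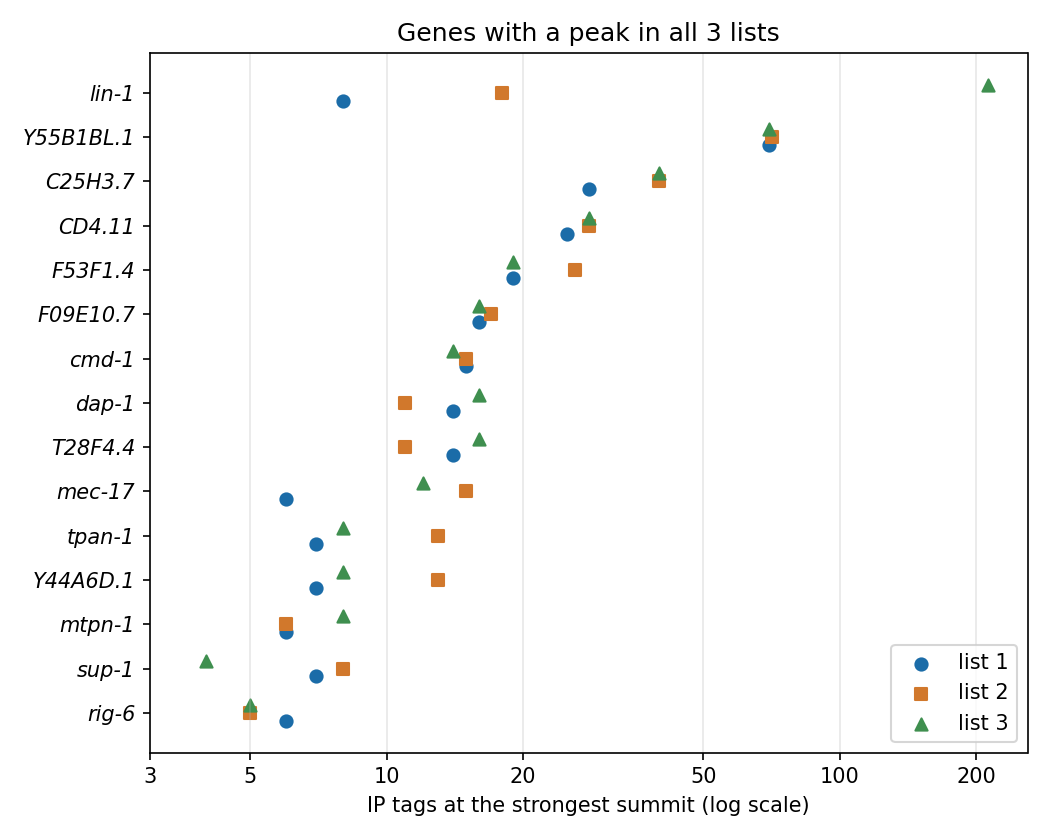
IP tags at the strongest summit (log axis) of each gene found in all 3 lists, with a point each for lists 1, 2 and 3. The list 3 point of lin-1 at 213 tags stands apart from its 8 and 18 tags in lists 1 and 2, while the 3 points of Y55B1BL.1 lie at 70, 71 and 70. Tags are not adjusted for depth.

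Y55B1BL.1 had nearly the same number of IP tags in each list. It lies on chromosome III at 402384 to 405615 (WBcel235), and no role is given to it here. Its highest summit held 70, 71 and 70 IP tags in lists 1, 2 and 3, with folds of 54.7, 45.3 and 44.2 over input at the background. These tags are not adjusted for depth, and after the caller's scaling the levels were 65.7, 54.7 and 51.4. The gene held 4 summits in each list, in 3 separate regions, and each summit of a list had a counterpart in the others. The summit 361 bp from the low-coordinate end of the gene held 6 tags in list 1, and its counterparts held 7 and 10. The summit at 1699 bp held 33 tags in list 1, with 44 and 38 in lists 2 and 3. The one at 2868 bp held 33, with 39 and 30. The order of the sites by height was nearly constant, with the outermost low-coordinate site lowest in every list. The input was at the background under 11 of the 12 summits and just above it under the other.

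F09E10.7 (X, 1500180 to 1501852), also without a role given here, had a pair of summits in every list inside a region of 720 bp. The taller summit held 16, 17 and 16 IP tags in lists 1, 2 and 3, all over background input, with a fold of 11.8 ± 1.21 (SD, n = 3) for the region. The same 16 tags gave a fold of 13.1 in list 1 and 10.8 in list 3, so this SD includes the unlike scaling of the lists. The heights differed by less than the counting interval of any of them. The relation between the summits was not constant. In list 1 the summit farther along held 6 tags against 16 for its neighbour, and in lists 2 and 3 it held 16 and 16.

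The gene lin-1 encodes an ETS-domain transcription factor acting downstream of Ras and MAP kinase in vulval development. It spans 24426 bp on chromosome IV (2275861 to 2300286). Its strongest summit held 8, 18 and 213 IP tags in lists 1, 2 and 3, with folds of 6.97, 12.1 and 112. List 3 stood far above the others. The local input there was 0.404 tags, against the background in lists 1 and 2. In list 3 the peak covered 2463 bp with 5 summits of 93, 158, 194, 213 and 133 tags. Lists 1 and 2 had lower summits in the same stretch, 5 and 8 tags in list 1 and 8, 18 and 10 in list 2. Every lin-1 summit lay between 1375 and 3110 bp from the low-coordinate end, and none in the rest of the gene. The coefficient of variation of the fold between lists was 136% for this region. Over the 15 distinct regions found in all 3 lists its median was 23.9%, and without lin-1 the highest was 31.1%.

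**Figure D2:**
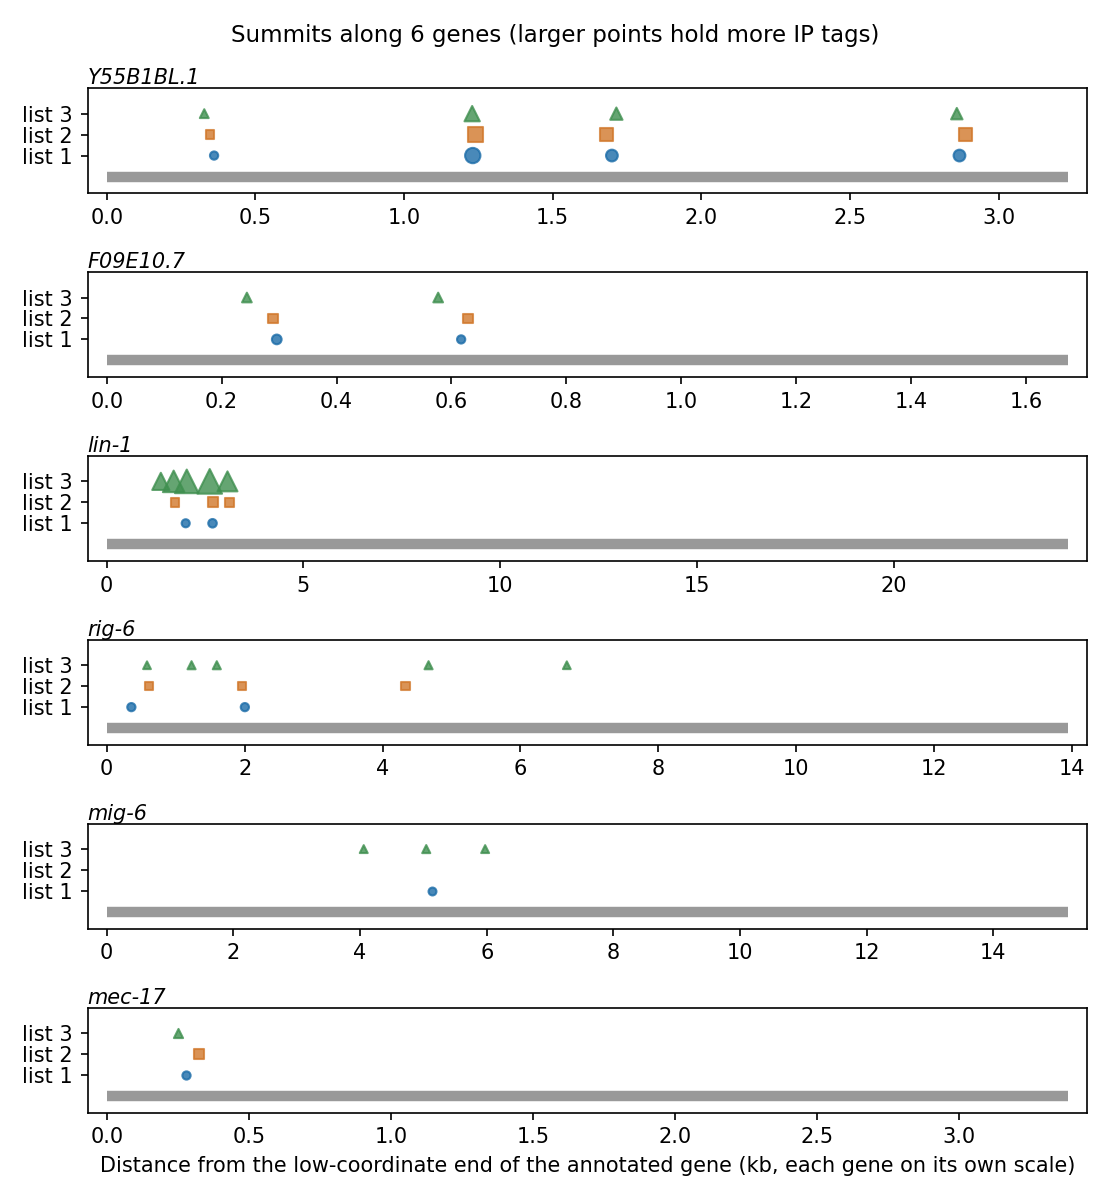
Summits of lists 1, 2 and 3 (rows) along 6 genes, as distance in kb from the low-coordinate end of the annotated gene (grey bar), with larger points for more IP tags. Y55B1BL.1 has 4 summits at like places in each list, those of lin-1 lie between 1375 and 3110 bp of a gene of 24426 bp, and mig-6 has none in list 2.

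Several other genes of 3 lists were enriched over an input that was itself measured. At C25H3.7 (II, 5666756 to 5668930) the IP held 28, 40 and 40 tags, or 26.3, 30.8 and 29.4 after the caller's scaling. The input held 3, 6 and 3 tags, and the folds, taken from the scaled IP, were 6.82, 4.54 and 7.59. At CD4.11 (V, 5585133 to 5591683) the IP held 25, 28 and 28 tags over an input of 2, 3 and 3, with folds of 8.16, 5.64 and 5.39. F53F1.4 (V, 13411077 to 13411714) had 19, 26 and 19 IP tags over 1, 2 and 2 input tags, with folds of 9.42, 7.01 and 4.98. In each of these genes the IP exceeded the input in every list, while the folds varied between lists. No role is given here to these genes. The summit in CD4.11 also lay in the non-coding RNA gene CD4.18, and without strand the source of its reads cannot be told apart.

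A pair of loci in 3 lists counted for 2 genes each, since annotated genes overlap there. The summit shared by T28F4.4 and dap-1 (I, 7491975 to 7492445) held 14, 11 and 16 tags, with folds of 10.1, 7.71 and 7.05. The summit shared by Y44A6D.1 and tpan-1 (V, 20789601 to 20789925) held 7, 13 and 8 tags, with folds of 6.20, 8.96 and 5.80. The 15 genes of 3 lists therefore represent 13 loci. A second region lay in tpan-1 alone, with 9 tags in list 2 and 6 in list 3.

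The other genes in 3 lists were mec-17, cmd-1, sup-1, mtpn-1 and rig-6. The alpha-tubulin acetyltransferase gene mec-17, used in touch receptor neurons (IV, 7983802 to 7987183), held 6, 15 and 12 IP tags, with a fold of 7.56 ± 1.87 (SD, n = 3). Its summits fell within 75 bp of each other, near the low-coordinate end of the gene. The calmodulin gene cmd-1 (V, 1156271 to 1158189) held 15, 15 and 14 tags over an input of 1.42, 1.81 and 0.999 tags, with a fold of 5.44 ± 0.897 (SD, n = 3). Its strongest summits lay up to 462 bp apart, which rests on the choice between neighbouring summits of 14 and 13 tags in list 3. The one with 13 tags, at 1157013, lay nearer those of lists 1 and 2, at 1157067 and 1157205.

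Lower counts marked the last 3 genes. The gene sup-1, which encodes a small transmembrane protein known from suppression of unc-17 mutants, held 7, 8 and 4 tags (III, 11737387 to 11737626). The myotrophin homologue mtpn-1 held 6, 6 and 8 tags (X, 2407436 to 2407896). The contactin-like neuronal adhesion gene rig-6 (II, 4798151 to 4812086) held 6, 5 and 5 tags at its strongest summits. All of these strongest summits rested on background input, with folds between 3.32 and 6.20. In rig-6 the signal was spread thinly, with 10 summits of 3 to 6 tags in 6 regions. Only 1 of these regions (4799647 to 4800362) was in all 3 lists, with strongest summits up to 407 bp apart.

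Among the 24 genes in exactly 2 lists, 5 were in lists 1 and 2, 7 in lists 1 and 3, and 12 in lists 2 and 3. The tallest were also those with most input. F41F3.3 held 18 IP tags over 6 input tags in list 1 and 25 over 3 in list 3, with folds of 2.56 and 4.84. The gene sqd-1, a homologue of the hnRNP squid of Drosophila, held 19 tags in list 2 and 22 in list 3, over 2.01 and 2.00 input tags, with folds of 5.19 and 5.72. The gene chdp-1 held 14 and 18 tags in lists 1 and 2, over 4 and 1 input tags, so that its folds of 2.83 and 7.43 differed far more than its IP heights. The peaks of sqd-1 in the 2 lists did not overlap. The same held for Y97E10C.1 (7 and 4 tags in lists 2 and 3), gdi-1, a Rab GDP dissociation inhibitor (9 and 4), W09D6.5 (6 and 4) and epic-1 (4 and 4 in lists 1 and 2). These 5 genes recurred as genes but not as places.

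Others of these genes differed in how much input they had. The gene far-1, for a fatty acid and retinol binding protein (III, 9080371 to 9081179), held 12 tags in list 1 and 17 in list 3, with folds of 4.67 and 4.49 over an input of 1.62 and 2.00 tags. The lipase gene lipl-5 held 11 and 10 tags in lists 1 and 3. The omega-3 fatty acid desaturase gene fat-1 held 8 and 6 in lists 2 and 3, at summits 3 bp apart, the closest of any region. The AMP-activated kinase subunit gene aak-2 held 8 and 5 in the same lists. Of these, only far-1 had more than 1 input tag in either list.

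A further 7 genes in 2 lists had 4 to 9 IP tags. The small GTPase gene rho-1 held 8 and 9 tags in lists 1 and 2, and the plasma membrane calcium pump gene mca-1 held 6 and 7. The G protein alpha subunit gene goa-1 held 6 and 5 in lists 1 and 3, and the kinesin-1 heavy chain gene unc-116 held 6 and 6 in the same lists. The immunoglobulin adhesion gene igcm-3 held 8 and 5 in lists 2 and 3, at summits in separate regions. The region of igcm-3 shared by these lists held 5 tags in each. The papilin gene mig-6, an extracellular matrix component, held 4 and 5 in lists 1 and 3, and had 3 regions. The chaperonin subunit gene cct-5 held 7 and 6 in lists 2 and 3. At these heights, the values of the lists are not separable from counting error, since 6 tags have an exact 95% interval of 2.20 to 13.1.

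The remaining genes in 2 lists were the Period homologue lin-42, the overlapping genes ZC8.6 and lfi-1, and R12E2.7, C37C3.2 and H11E01.3. The developmental timing gene lin-42 (II, 1233236 to 1252359) held 9 tags in list 2 and 8 in list 3, with folds of 6.46 and 5.80. Its shared region (1234097 to 1234802) had a fold of 6.13 ± 0.46 (SD, n = 2). ZC8.6 and lfi-1 share 10 and 5 tags in the same lists. R12E2.7 held 8 and 6 tags in lists 1 and 2. H11E01.3 held 5 and 5 in lists 2 and 3 at summits in separate regions, and 5 and 4 in its shared region. C37C3.2 held 4 and 8 in lists 1 and 3.

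Some genes of the set encode subunits of the same complex or have a role in common, and examples follow. These groupings were noticed after the values were seen and have no test. The G protein subunit genes were goa-1, gpb-1 (beta, up to 6 tags at 3 summits of list 3) and gpc-2 (gamma, 8 tags over 1 input tag in list 2). The kinesin-1 light chain gene klc-2 held 5 tags in list 3, beside unc-116. The casein kinase 1 gene kin-20 and the Blimp1 homologue blmp-1, both with roles in developmental timing, held 6 tags each in list 3, beside lin-42. Apart from goa-1, unc-116 and lin-42, each of these genes was in 1 list alone.

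The 65 genes in 1 list had few tags. The tallest were cut-2, a cuticlin gene, with 18 tags over 4 input tags in list 2 and a fold of 2.97, and the ornithine decarboxylase antizyme gene oaz-1 with 15 tags over 1.21 in the same list. In list 3 alone the overlapping genes ercc-1 (DNA repair) and ncs-2 (neuronal calcium sensor) shared a summit of 12 tags with a fold of 8.29. The intestinal GATA factor gene elt-2 held 11 tags there with a fold of 7.67, and unc-115, an abLIM homologue, and vms-1 held 10 each. In list 2 alone the diphthamide gene dph-7 and the calponin-like gene clik-1 held 10. In list 1 alone the chaperonin gene cct-7 held 9 over 1 input tag, sucl-1 held 8, and the protein phosphatase 1 gene gsp-1 held 7. These heights lie in the range of genes found in 2 lists, so height alone did not separate genes in 1 list from those in 2.

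The others in list 1 alone were the Notch co-ligand gene osm-11, mnk-1 (a MAP kinase interacting kinase) and dbd-2 with 6 tags each, the coronin-like gene pod-1 and the actin capping gene cap-2 with 5, and C18D11.3 with 4. The others in list 2 alone were the SPARC gene ost-1, pck-1 (phosphoenolpyruvate carboxykinase) and tpi-1 (triosephosphate isomerase) with 7 tags, and W03G11.4 with 6. Below them were lin-7, sec-61.B, ubh-1 and the axon outgrowth gene unc-69 with 5, and asg-2 with 4. Of the 42 genes in list 3 alone, 27 had at most 5 tags, and 38 had background input at every summit. Between 6 and 10 tags that list held the Y-box gene cey-1, trip-4, the galectin gene lec-2, the nonmuscle myosin gene nmy-2, bath-25, rab-1 and the agrin gene agr-1, beside those named above. With 5 tags it held the dual oxidase gene bli-3, the hemidesmosome gene pat-12, rbm-25, nspc-14, nsun-1, W07E6.5, F23A7.4, F54A3.5, Y56A3A.6 and ZK632.9, besides klc-2.

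Summits at the calling threshold were frequent in list 3. The lowest −log10 p of a summit in the set was 3.09 in list 1, 3.23 in list 2 and 3.05 in list 3. Exactly 16 genes of list 3 alone had no summit above that lowest value, 10 of them with 3 tags and 6 with 4. They were F08B12.4, F15G9.1, H40L08.2, H40L08.7, gmpr-1, the profilin gene pfn-2, the Tousled-like kinase gene tlk-1, unk-1, the ZEB homeobox gene zag-1 and the bZIP gene zip-2 with 3 tags. Those with 4 tags were F38A5.2, T19H5.4, the aquaporin gene aqp-7, mccc-1, ppk-2 and the SNARE gene ykt-6. A count of 3 has an exact 95% interval of 0.619 to 8.77. Genes just below the threshold have no values in the lists and were not analysed here. By the caller's q, 6 summits of list 1, 19 of list 2 and 53 of list 3 were over 0.05.

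Stricter limits were also applied, and lower counts follow from their construction. With a q of at most 0.05, 63 of the 104 genes had a summit in any list, 22 in at least 2 and 13 in 3, where all coding genes gave 0.435%, 0.155% and 0.1%. The genes of 3 lists that no longer had a summit in each were rig-6 and sup-1. A fold of at least 4 gave the same numbers of genes and lost the same pair from 3 lists, with 0.435%, 0.155% and 0.105% of all coding genes. At a −log10 q of at least 5, 25 genes had a summit, 9 in at least 2 lists and 7 in 3, where all coding genes gave 0.16%, 0.0601% and 0.045%. The 7 were Y55B1BL.1, lin-1, F09E10.7, C25H3.7, CD4.11, T28F4.4 and dap-1, and mec-17 and F53F1.4 passed in 2 lists.

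In each list, more of the genes with tall summits than of those with low ones recurred. In list 1, 3 of 6 genes with up to 5 tags, 12 of 18 with 6 to 10 tags and 12 of 12 with over 10 tags were also in another list. In list 2 the counts were 3 of 8, 15 of 22 and 14 of 16. In list 3 they were 12 of 39, 9 of 21 and 13 of 16. The order was the same in the 3 lists, but the lowest classes of lists 1 and 2 hold few genes. Genes that share a summit are counted separately, such as T28F4.4 and dap-1, both with over 10 tags in each list. Grading by q gave no such common order. In list 1, 5 of 6 genes with a q over 0.05 recurred (83.3%), against 22 of 30 at or below it (73.3%). In list 2 the counts were 5 of 14 and 27 of 32, and in list 3 they were 12 of 40 and 22 of 36. The larger number of genes from list 3 went with more low summits, and list 3 also had the fewest input tags. Their part in the count was not tested.

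**Figure D3:**
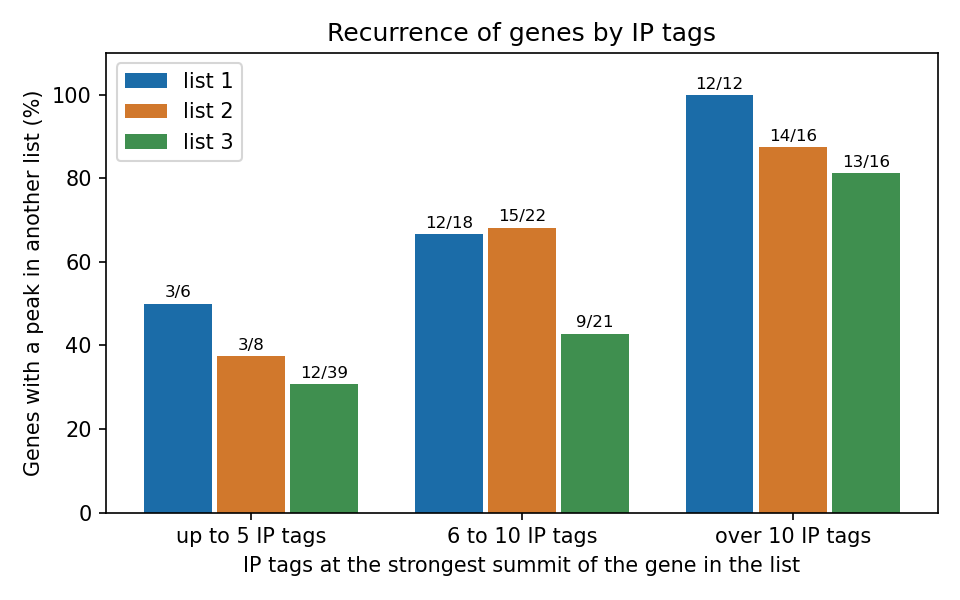
Percent of genes with a peak in another list, for genes of each list grouped by IP tags at their strongest summit in that list, with gene counts above the bars. The percent is highest over 10 tags in each list, at 12 of 12, 14 of 16 and 13 of 16 genes. Genes that share a summit are counted separately.

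Seen list by list, 20 of the 36 genes of list 1 (55.6%) were in list 2, and these were 43.5% of the 46 genes of list 2. Lists 1 and 3 shared 22 genes, 61.1% of list 1 and 28.9% of list 3. Lists 2 and 3 shared 27, 58.7% of list 2 and 35.5% of list 3. The shared genes with overlapping peaks were 19 for lists 1 and 2, 22 for lists 1 and 3, and 23 for lists 2 and 3. Genes that share a summit are counted separately. Of all coding genes, 0.26%, 0.325% and 0.515% had a summit in lists 1, 2 and 3. The rule used these calls, so nothing is read from that comparison. At the level of places, overlapping peaks formed 125 distinct regions, 15 in all 3 lists, 22 in exactly 2 and 88 in 1. Within the 37 regions of at least 2 lists, the strongest summits of the lists lay a median of 54 bp apart (3 to 462), and in 30 regions they lay within 100 bp. Since such regions were formed from overlapping peaks, with a median peak length of 286.5 bp, their summits are held close by construction.

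Input was scarce at most of these genes. At 136 of the 194 summits (70.1%) the input was at the background, and at 35 it reached at least 1 tag. The highest input level was 6 tags, at C25H3.7 in list 2 and F41F3.3 in list 1. At the 33 coding genes left out by name, 73.3% of 105 summits had input at the background. The lowest folds of lists 1 and 2 came from genes with measured input, 2.56 at F41F3.3 in list 1 and 2.97 at cut-2 in list 2. In list 3 the lowest fold, 2.70, belonged to the summits of 3 tags over background input.

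**Figure D4:**
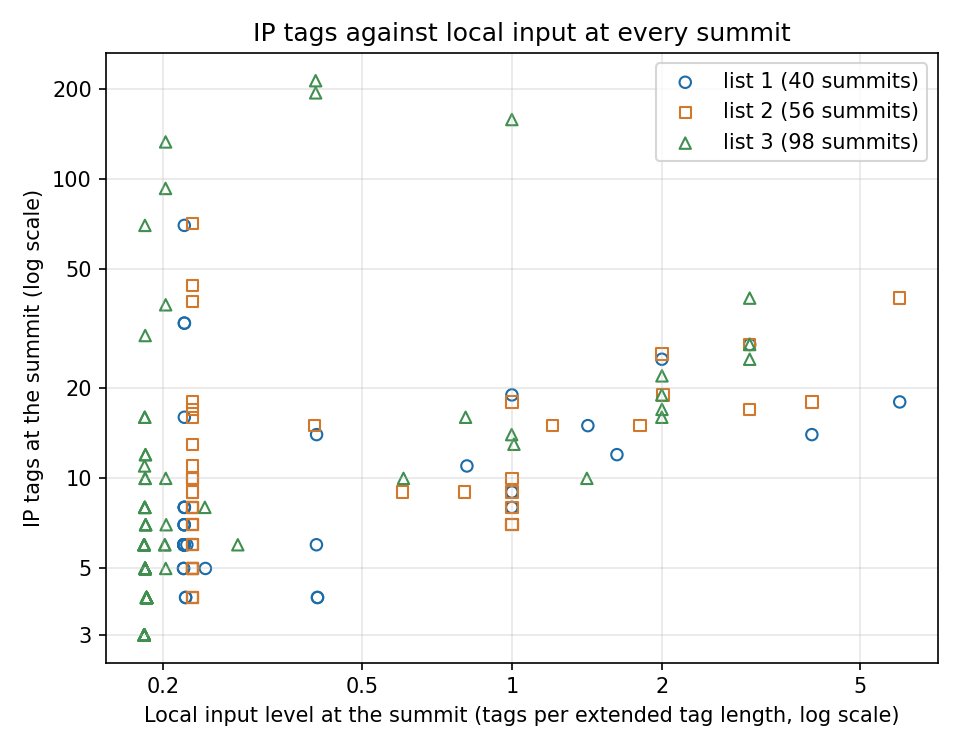
IP tags against the local input level at each of the 194 summits, both on log axes, with points for lists 1, 2 and 3. Most points stand in columns at the background input of their list, and the 35 with at least 1 input tag reach up to 6.

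Known functions were spread over many groups with few genes each. Of 20 gene lists by family, tissue or pathway, 15 held a gene of the set, and 35 of the 104 genes were in any list. The set as a whole was 0.52% of all coding genes, against which each list's share is to be read. Extracellular matrix genes had 2 of 31 (6.45%, mig-6 and ost-1). Muscle and actin genes had 4 of 107 (3.74%, nmy-2, cap-2, pat-12 and pfn-2), and kinases and phosphatases 4 of 154 (2.60%, aak-2, gsp-1, kin-20 and ppk-2). Chaperones had 2 of 99 (2.02%, cct-5 and cct-7), and splicing and other RNA-binding proteins 2 of 103 (1.94%, cey-1 and rbm-25). These counts are too small to rank the groups, and exclusion by name removed members of several of them. The gene lists were also incomplete. The kinase genes mnk-1 and tlk-1 and the hnRNP homologue sqd-1, all in the set, were in none of them.

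The neuron list had 3 of 244 genes (1.23%), mec-17, goa-1 and unc-116, each in at least 2 peak lists. All genes of the set in at least 2 peak lists made up 0.195% of coding genes. The 4 muscle and actin genes were in 1 peak list each. These counts depend on which genes the lists hold. Outside the neuron list, ncs-2 and unc-69, given neuronal roles above, were in 1 peak list each, and rig-6 was in 3. Neuronal and muscle genes had been left out by name, and whether these lists differ was not tested. Of the others, transcription factors had 4 of 514 (0.778%, lin-1, elt-2, blmp-1 and zip-2), the intestine list 3 of 483 (0.621%, far-1, fat-1 and elt-2), and small GTPases and traffic 3 of 207 (1.45%, rho-1, rab-1 and sec-61.B). Mitochondria and energy metabolism had 2 of 212 (0.943%), channels and transporters 2 of 416 (0.481%), and cuticle and hypodermis 2 of 364 (0.549%). Junctions and adhesion had 1 of 69 (1.45%), developmental signalling 1 of 63 (1.59%) and ubiquitin and proteasome 1 of 377 (0.265%). Several of these shares lie near that of the whole set. No gene of the set came from the 78 ribosomal protein genes, 75 translation factor and tRNA synthetase genes, 82 histone genes, 101 chromatin regulators or 136 germline genes. At a share of 0.52%, lists of these sizes would hold less than 1 gene each, so nothing is read from their absence.

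The genes were, by their median, longer than coding genes as a whole. The median annotated length was 3016 bp (207 to 25220), against 2005 bp for all coding genes and 3998 bp for the 33 left out by name, and 61.5% of the set exceeded the median of all coding genes. A longer gene offers more places for a summit, and this was not adjusted for. Genes in 3 lists had a median length of 2694 bp, those in 2 lists 4190 bp and those in 1 list 2576 bp, so length did not order with recurrence.

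Summits were found along the whole gene. Counting from the low-coordinate end, 55, 47, 36, 35 and 34 of the 207 pairs of gene and summit lay in successive 20% stretches, with a median at 42.1% of the length. The pairs repeat sites over lists and weigh genes with many summits more. All 10 summits of lin-1 and most of the 10 of rig-6 lay in the first stretch, so no trend over genes is read from these counts. Taking the strongest summit of each gene alone moved the median to 47.6%. In genes of at least 2000 bp, 40 of 143 summits (28.0%) lay within 500 bp of either end. These end stretches made up 20.2% of the length of the gene, as a mean over the 143 summits. Strand, exons and UTRs were not used here, so the low-coordinate end is not the start of transcription and no summit is called exonic or intronic.

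The X chromosome held the most genes of the set, 23, or 22.1% against 13.7% of all coding genes. Chromosome III held 19 (18.3% against 13.2%), and V also 19 (18.3% against 25.0%). Chromosome II held 17, and I and IV held 13 each. These shares were not tested. Of the genes in at least 2 lists, X held 7, IV 8, III 6, V 10, I 5 and II 3. In the same order these were 0.256%, 0.244%, 0.227%, 0.2%, 0.174% and 0.0871% of the coding genes of each chromosome. The share over all coding genes was 0.195%.

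The neighbourhood of small RNA genes bears on how reads are assigned. No peak of the set overlapped a snoRNA, snRNA, rRNA, tRNA or microRNA gene, and the median distance of a summit to such a gene was 56137 bp. The nearest were the summits of W09D6.5, 132 bp from sls-2.15 and 201 bp from sls-2.14, and that of unc-115, 375 bp from the tRNA gene F09B9.t2. The gene mnk-1 had further summits inside the snoRNA gene R166.7, with 14, 27 and 27 tags in lists 1, 2 and 3, which were not counted for it. Its own summit in list 1 had 6 tags. Summits in small RNA genes had a median of 19 tags, against 7 both for the set and for the coding genes left out by name. Of those 33 genes, 18 (54.5%) were in at least 2 lists, against 37.5% of the set, and this difference was not tested. In all, 11 genes of the set shared every summit with another coding gene, and trip-4 shared its summit with the non-coding RNA gene Y53F4B.45.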

How the data were processed

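RNA inputs and anti-FLAG IPs were grouped by sample title, 3 samples in each of 2 groups, and 3 peak lists were analysed. BWA, MACS2 and DiffBind, and WBcel235 as the build, come from the submitters' processing notes. Per the file headers, the authors called peaks with MACS2 2.1.0.20150420 on 1 IP against 1 input without pooling, with a p threshold of 0.001, 1 tag kept per position (67 to 72% of tags removed), extension to 201 to 203 bp and an effective genome of 33769074 bp. In the deposited lists the signal is the pileup of extended IP tags at the summit, scaled by the authors' caller to the smaller library. The deposited fold enrichment is a ratio with 1 added to both terms. Each summit also has a −log10 p and a −log10 q from the authors' caller. Per the file headers no q was computed, yet the deposited column is filled.

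The IP tags were recovered as pileup over the scaling factor and were whole within 0.02 at every summit. Pileup and fold together gave the input level, called background within 0.01 of the genome-wide level. Genes came from a RefSeq table of WBcel235 without strand, exons or sequence, matched by build name, and a summit was assigned to each gene whose span holds it. Peaks overlapping by at least 1 bp were merged into regions. No test between groups was made. Members and gene lists were chosen with earlier results of these data known. The rule for named genes took 66 of the 104 by recurrence, peak height and membership of the gene lists, and the other 38 were named after their values were seen. Alternatives were stricter q and fold limits, other overlap and gene assignment rules, and leaving out each replicate. Leaving out lin-1 was added after seeing the data. The gene assignment and merging steps were tested on simulated data. The planned count of the YGCY motif was not run, since no genome sequence was used here. Python 3.11.15, numpy 2.4.6, pandas 2.3.3, scipy 1.17.1 and matplotlib 3.10.9 were used.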

Additional observations from a re-analysis of the deposited data

How the results depend on the processing

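Counts moved with the threshold, by construction of the filters. At −log10 q of at least 5, 25 genes had a peak, 9 in at least 2 lists and 7 in 3, with 9 and 7 regions, a median fold of 8.29, 18 tags, a median position of 38.0%, and 4 and 2 gene lists with a gene in any or at least 2 peak lists (15 and 9 as reported). A q of at most 0.05 and a fold of at least 4 each left 63 genes, 22 in at least 2 lists and 22 such regions, with a median fold of 5.81 and 10 and 9.5 tags, and 13 of the 15 genes in 3 lists. Assigning peaks by largest overlap gave 125 genes in any list, 60 in at least 2 and 33 in 3, and the cause was not tested. Summits with input above background had a median of 14.5 tags, and the strongest summit per gene had a median position of 47.6%. Leaving out each replicate gave 62 to 95 genes, 20 to 27 in at least 2 lists and 20 to 26 such regions, a median fold of 4.48 to 5.44, 6 to 8 tags, and 5 to 6 gene lists with a gene in at least 2 lists. The lowest gene count, 62, came without replicate 3, and without replicates 2 and 3 the counts in at least 2 lists were 22 and 20. Leaving out lin-1 gave a median of 6 tags and 38 genes in at least 2 lists. No paired analysis was possible because values exist for called peaks alone, which leaves no test between IP and input. Absence of a gene from a list at 3 to 5 tags says little at this depth.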
